A study of Mus musculus with 24 samples.

Results

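The cells that make myelin were followed in neonatal cerebral cortex through 9 oligodendrocyte lineage genes, Pdgfra, Cspg4, Olig1, Olig2, Sox10, Enpp6, Cnp, Mag and Mbp. They were picked by symbol out of the 48709 genes of the count table, and each symbol matched 1 row. The question was whether particulate matter breathed by the dam during pregnancy changed their RNA levels in the pups. The libraries came from mouse pups labelled C57BL/6J, where the study's methods name C57BL/6NJ. The age label was 3 to 5 days for every pup, with no age for each library, where the methods give day 5. The nPM dams breathed nPM, a nano-sized fraction of urban particulate matter put back into the air as an aerosol, and the control dams breathed filtered air. Exposure took 5 h a day, 3 days a week, and lasted from gestational day 2 to birth, at a dose labelled 300 mg/m3 where the methods give μg/m3. No genotype or further treatment separated the groups. There were 3 control females (libraries V10, V12 and V19), 3 control males (V14, V16 and V24), 3 nPM females (V09, V11 and V20) and 3 nPM males (V13, V15 and V23). Per the methods, pups of a group came from different litters, and the litter of each library is not labelled. Blood libraries, 12 in number, are used below for background levels.

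Oligodendrocyte precursor cells carry the receptor for platelet-derived growth factor (Pdgfra) and the proteoglycan NG2 (Cspg4) on their surface, and divide and migrate before they mature. The transcription factors Olig1, Olig2 and Sox10 are held through the lineage. Enpp6, a choline phosphodiesterase, marks cells that have just begun to mature, and Cnp, Mag and Mbp encode proteins of myelin, of its cytoplasm, its contact with the axon and its compact layers. In mouse cortex precursors are plentiful around birth, while myelin is laid down mainly in the weeks after. In bulk tissue, fewer cells of a type and less RNA per cell cannot be told apart.

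On mm10 (Gencode M11), Olig2 lies at chr16:91225550-91228677 and Olig1 at chr16:91269772-91271933, both on the plus strand. Pdgfra is at chr5:75152292-75198215 (plus), Cspg4 at chr9:56865104-56899870 (plus), Sox10 at chr15:79154913-79164490 (minus), Enpp6 at chr8:46986887-47096762 (plus), Cnp at chr11:100574904-100591729 (plus) and Mag at chr7:30899176-30914873 (minus). RefSeq's promoter table (GRCm38.p6) held 6 of the 9 genes. The bases upstream of the start are shown for Mag, Cnp and Enpp6, whose levels varied together over the libraries, and for Pdgfra, whose level did not follow theirs. Each is read 5′ to 3′ on the gene's strand, and capitals mark the E-box CANNTG, a site class bound by basic helix-loop-helix factors such as Olig2, and the cores ACAAT and ACAAAG, bound by SOX factors and the latter also by TCF factors, on either strand. The Mag stretch is chr7:30914923-30915172 (minus strand), upstream of the outermost of its 3 listed starts. The Cnp stretch is chr11:100574689-100574903, the Enpp6 stretch chr8:46986637-46986886 and the Pdgfra stretch chr5:75152001-75152250, all on the plus strand.
Mag: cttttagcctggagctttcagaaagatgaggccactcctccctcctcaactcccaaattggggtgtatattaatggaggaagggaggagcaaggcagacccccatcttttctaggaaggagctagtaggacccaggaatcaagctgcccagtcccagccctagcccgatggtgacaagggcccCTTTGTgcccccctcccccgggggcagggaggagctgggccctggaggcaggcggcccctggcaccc
Cnp: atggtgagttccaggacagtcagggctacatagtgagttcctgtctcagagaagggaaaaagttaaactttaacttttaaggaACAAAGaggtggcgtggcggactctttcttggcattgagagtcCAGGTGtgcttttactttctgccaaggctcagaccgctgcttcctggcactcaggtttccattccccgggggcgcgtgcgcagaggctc
Enpp6: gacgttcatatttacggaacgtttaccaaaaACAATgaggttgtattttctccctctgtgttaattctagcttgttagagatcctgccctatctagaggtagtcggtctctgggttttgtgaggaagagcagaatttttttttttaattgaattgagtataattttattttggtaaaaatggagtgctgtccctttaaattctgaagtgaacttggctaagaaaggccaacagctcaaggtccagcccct
Pdgfra: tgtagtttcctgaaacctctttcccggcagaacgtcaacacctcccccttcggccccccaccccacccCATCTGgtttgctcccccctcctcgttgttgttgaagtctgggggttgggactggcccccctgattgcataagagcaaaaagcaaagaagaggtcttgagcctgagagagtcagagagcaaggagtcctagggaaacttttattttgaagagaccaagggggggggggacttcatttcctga

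In windows of 250 bases before the start, Mag and Cnp each held 1 ACAAAG and no ACAAT, and Enpp6 held 1 ACAAT and no ACAAAG. Pdgfra held neither core. Cspg4 and Olig2, not printed, each held 1 ACAAT. Of 32851 promoters of that length, 38.8% held ACAAT or ACAAAG, 27.7% ACAAT and 16.5% ACAAAG. The E-box was found once in the Cnp and Pdgfra windows and not in those of Mag and Enpp6, where 66.2% of all promoters held it. The marked cores did not overlap each other. A match is a run of letters and not a measured site.

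The 12 cortex libraries held 22301409 to 33804371 counts on genes, and RIN, a score of RNA integrity, was 9.4 to 9.9. Each group of 3 had 2 libraries in sequencing lane 2 and 1 in lane 3. RIN was not related to the level of any of the 9 genes after adjustment (Pearson's r from -0.53 for Olig1 to 0.44 for Cspg4, 9 relations, smallest permutation p = 0.0765 and smallest Benjamini-Hochberg adjusted p = 0.495). V24, a control male, stood apart: of all 12 libraries it had the highest level of Sox10, Enpp6, Cnp, Mag and Mbp, so results that rest on it are given with and without it. The cortex label was met by its neuronal markers, since Slc17a7 and Neurod6 had at least 7918 and 3439 counts in every library.

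Levels are given as CPM, counts on a common library total, scaled by TMM factors. Compared between genes, per kilobase of gene length, Olig1 had the highest mean level at 24.4 ± 1.38 CPM per kilobase (SD, n = 12), followed by Cnp at 22.4 ± 4.68, Pdgfra at 16.2 ± 0.809 and Mbp at 15.8 ± 6.28. Olig2 followed at 8.15 ± 0.597, Sox10 at 5.67 ± 0.716, Cspg4 at 2.94 ± 0.229, Mag at 2.50 ± 1.54 and Enpp6 at 1.86 ± 0.544. The ranges over libraries did not overlap between Mbp and Olig2, between Olig2 and Sox10 or between Sox10 and Cspg4, and the other neighbours in the order overlapped. By this measure the precursor receptor Pdgfra was at a level like that of the myelin gene Mbp, while Mag, the myelin protein at the axon surface, was low. The measure takes the deposited length of a gene, 8403 bases for Mbp and 10024 for Pdgfra, and not that of the transcripts present. Mbp counts also take in the Golli transcripts of the same locus, which are made outside myelin as well. Cnp lies across the gene Dnajc7 on the other strand, which had up to 4624 counts in a cortex library, and Mbp across Rpl21-ps8, with up to 296. The strand setting of the counting is not given in the sources used here, so reads of such pairs cannot be told apart.

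**Figure D1:**
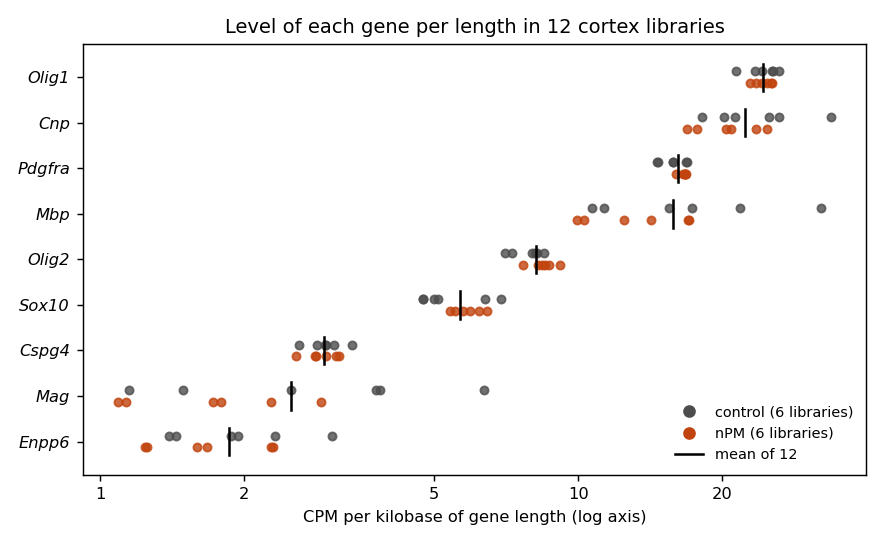
Level of the 9 genes per length in cortex. The x axis is CPM per kilobase of gene length on a log scale, points are libraries (grey control, orange nPM, 6 each) and black bars the mean of 12. Olig1, Cnp, Pdgfra and Mbp sit highest, and the points of Mag, Mbp, Cnp and Enpp6 spread far more widely than those of Pdgfra, Olig1 or Olig2.

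The genes of precursor cells were even across libraries. Pdgfra was at 158, 146 and 170 CPM in control females, 148, 168 and 159 in control males, 160, 169 and 167 in nPM females and 166, 168 and 167 in nPM males. Its coefficient of variation over the 12 libraries was 5.00%, and the nPM libraries lay inside the range of the control libraries. Cspg4 ranged from 20.7 CPM in V15 to 27.1 in V19, with a coefficient of variation of 7.78%. The pan-lineage factors were nearly as even, at 5.66% for Olig1 (46.3 to 56.8 CPM) and 7.32% for Olig2 (17.1 to 22.3 CPM). Sox10 varied more, at 12.6% (12.8 to 18.7 CPM). Counting error alone would give 1.44% for Pdgfra and 4.66% for Sox10.

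The genes of maturing cells varied widely. Enpp6 was at 14.9, 12.4 and 12 CPM in control females, 9.26, 8.92 and 19.6 in control males, 14.6, 7.97 and 8.02 in nPM females and 14.8, 10.7 and 10.2 in nPM males. Cnp, which encodes a phosphodiesterase of myelin cytoplasm, was at 95.9, 91.2 and 77.4 CPM in control females and at 73.5, 66.4 and 123 in control males. The nPM females had 85.7, 64.5 and 61.3 CPM of Cnp and the nPM males 90.1, 75.9 and 74.4. V24 was the highest library and V20 the lowest for Cnp, and the 4 groups overlapped.

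Mag was at 15.6, 15.4 and 10.2 CPM in control females, 6.09, 4.68 and 25.9 in control males, 11.8, 4.62 and 4.45 in nPM females and 9.24, 7.01 and 7.30 in nPM males. The highest library (V24) was 5.81-fold above the lowest (V20), both from lane 3, while the other 2 control males were among the 4 lowest of all. Mbp, the basic protein that compacts the myelin sheath, was at 183, 145 and 130 CPM in control females, 94.8, 89.8 and 270 in control males, 142, 86.2 and 83.7 in nPM females and 144, 105 and 120 in nPM males. Its highest library was 3.23-fold above its lowest, again V24 and V20. The coefficient of variation was 20.9% for Cnp, 29.2% for Enpp6, 39.7% for Mbp and 61.7% for Mag, against a counting error of 5.71% for Mag.

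**Figure D2:**
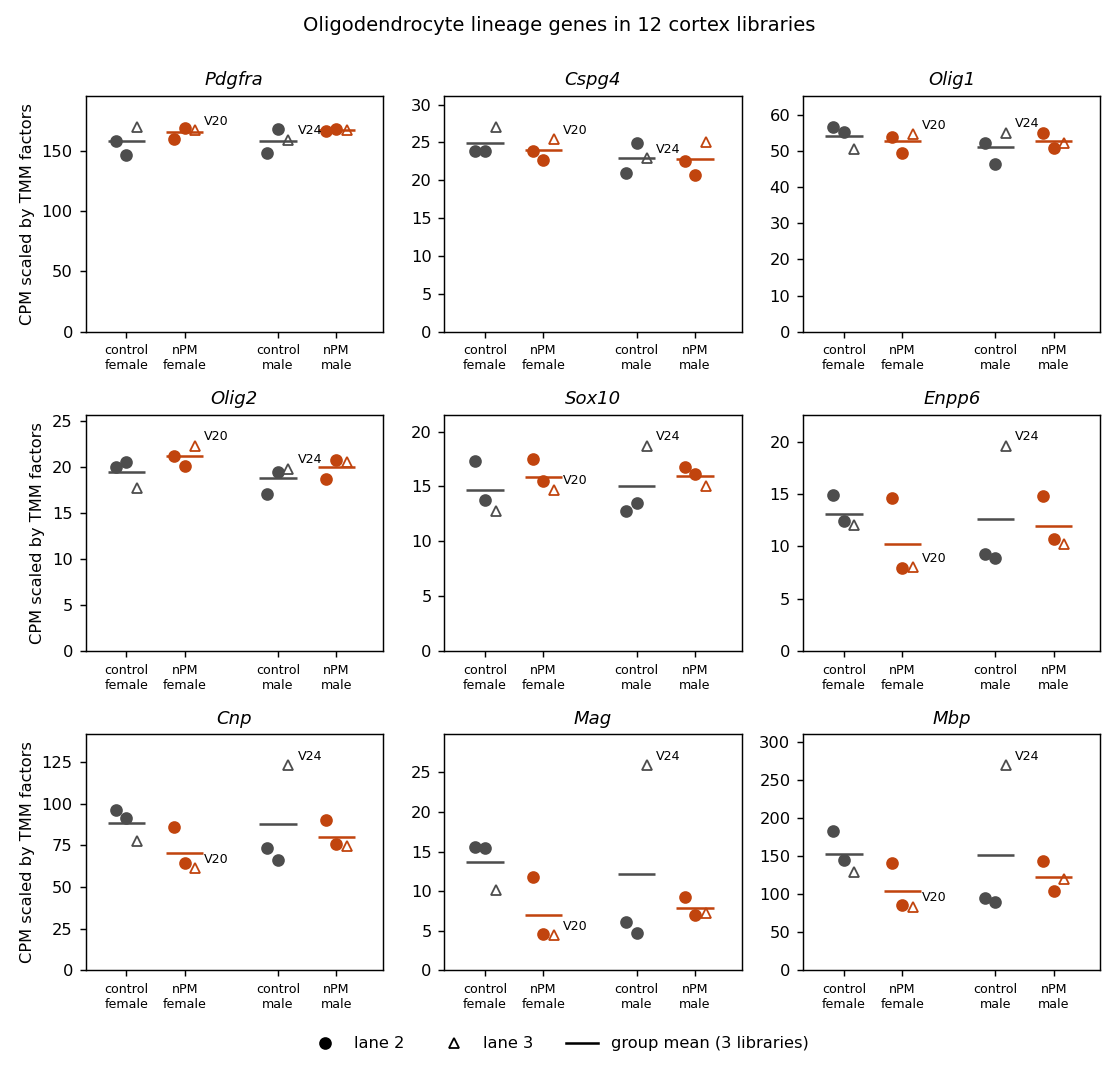
Levels of the 9 genes in each cortex library. The y axis is CPM scaled by TMM factors from 0, filled circles are lane 2 and open triangles lane 3, and bars are means of 3 libraries. For Enpp6, Cnp, Mag and Mbp the library V24 stands above all others, whereas Pdgfra, Cspg4, Olig1 and Olig2 are level across the 4 groups.

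The spread was also set against genes of like abundance, within a factor of 2 in mean CPM, by the biological coefficient of variation that edgeR fitted with exposure, sex and RIN in the model. This was 39.5% for Mag, 26.1% for Mbp, 22.4% for Enpp6 and 15% for Cnp. Among genes of like abundance, 99.6, 99.8, 98.0 and 99% had a lower fitted dispersion than these genes. The fitted value was 11.5% for Sox10, above that of 81.8% of like genes, and 6.21 to 8.28% for Olig1, Pdgfra, Olig2 and Cspg4, above that of 17.9 to 51.4%. This is a description of these 12 libraries.

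For nPM against control over both sexes (model 1, with sex and RIN as covariates), no gene of the 9 passed an adjusted p of 0.05 in edgeR, nor in limma voom or DESeq2. Of all 20857 genes tested, 0.0144% passed. At an unadjusted p under 0.05, edgeR gave 1 of the 9, against 5.67% of all genes (2.94% of genes lower and 2.73% higher after nPM), and limma voom and DESeq2 gave 0 of the 9. In edgeR this count was 0 with lane as a covariate or without V11, V12, V15 or V20, 2 without V19 and 3 without V09, V14 or V16. The gene with all libraries was Mag, at 7.4 ± 2.79 CPM in nPM libraries and 13 ± 7.78 in controls (SD, n = 6 each). The fitted log2 difference of Mag was -0.80 (SE 0.33, 95% interval -1.51 to -0.09, edgeR unadjusted p = 0.0301 and adjusted p = 0.862). Its groups overlapped, from 4.45 to 11.8 CPM after nPM and from 4.68 to 25.9 in controls (exact permutation test of log2 CPM, two-sided, p = 0.169, where the smallest possible is 0.00216). Without V24 the difference was -0.35 (SE 0.27, edgeR adjusted p = 0.730). Within lanes, fitted with exposure and sex but without RIN, it was -0.21 in lane 2 and -1.53 in lane 3, which held 1 library of each group.

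Mbp was at 113 ± 26.5 CPM after nPM and 152 ± 67.2 in controls (SD, n = 6 each). Its log2 difference was -0.42 (SE 0.22, 95% interval -0.88 to 0.04, edgeR adjusted p = 0.866), and -0.14 without V24. The lane values, here and below again without RIN, were -0.05 and -0.91. Cnp had -0.23 (SE 0.12, interval -0.49 to 0.03, adjusted p = 0.868), -0.10 without V24 and -0.04 and -0.53 in lanes 2 and 3. Enpp6 had -0.23 (SE 0.19, interval -0.62 to 0.16, adjusted p = 0.886), -0.05 without V24 and 0.10 and -0.77 by lane. For each of these 4 genes, then, the size of the difference depended on V24, a lane 3 library.

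The precursor and pan-lineage genes had narrow intervals close to 0. The log2 difference was 0.07 for Pdgfra (95% interval -0.02 to 0.17), -0.03 for Cspg4 (-0.16 to 0.11), -0.01 for Olig1 (-0.10 to 0.08), 0.10 for Olig2 (-0.03 to 0.23) and 0.10 for Sox10 (-0.10 to 0.30). In linear terms the upper bounds came to 1.12-fold for Pdgfra, 1.17-fold for Olig2 and 1.23-fold for Sox10. Without V24, 1 of the 9 genes, Sox10, had an unadjusted p under 0.05, as 8.88% of all genes did. Its log2 difference was then 0.18 (SE 0.08, edgeR adjusted p = 0.525). With genes of at least 1 count in any library tested in place of every library, 3 of the 9 passed the adjusted threshold (Mag, Mbp and Cnp), as did 0.570% of all genes. Under that filter the total degrees of freedom of the test of Mag went from 15.4 to 373. These are its residual ones plus those borrowed from all genes, and the 12 libraries were the same. Its SE went from 0.33 to 0.11, with nearly the same difference.

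**Figure D3:**
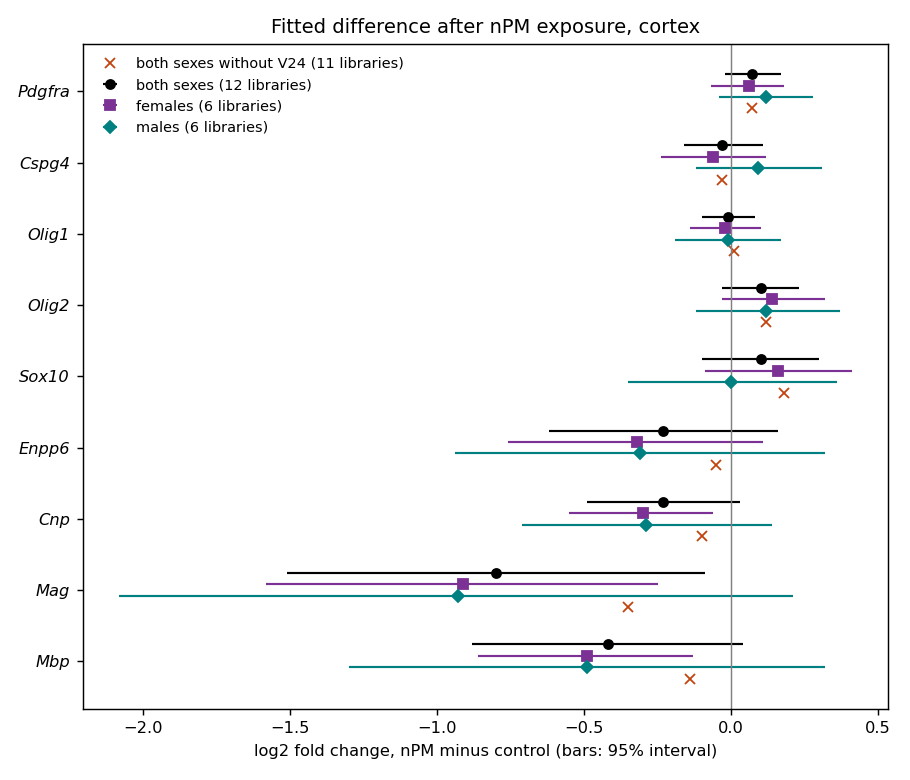
Fitted log2 differences between nPM and control for the 9 genes. The x axis is the log2 fold change (nPM minus control), symbols are the fit of both sexes, of females and of males with 95% intervals, and crosses the fit without V24. Mag, Mbp, Cnp and Enpp6 lie left of 0 with wide intervals, and the crosses lie closer to 0.

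In females alone no gene of the 9 passed the adjusted threshold in edgeR, limma voom or DESeq2, where edgeR called 1.11% of all genes. At an unadjusted p under 0.05 edgeR and limma voom gave 3 of the 9 and DESeq2 gave 0, against 15.4% of all genes in edgeR. These were Mag at -0.91 (SE 0.30, edgeR adjusted p = 0.173), Mbp at -0.49 (SE 0.17, adjusted p = 0.185) and Cnp at -0.30 (SE 0.11, adjusted p = 0.224). V09 was the nPM female that lay among the controls for these genes. Without it 4 of the 9 passed the adjusted threshold, where 1.74% of all genes did. With any other female library left out, 0 of the 9 passed. The 4 were Mbp at -0.79 (edgeR adjusted p = 0.00452), Mag at -1.53 (adjusted p = 0.00487), Cnp at -0.46 (adjusted p = 0.0215) and Enpp6 at -0.67 (adjusted p = 0.029). Without V20 the female differences were -0.46 for Mag, -0.16 for Mbp, -0.09 for Cnp and -0.01 for Enpp6. The exact permutation test gave p = 0.2 for Mag, Mbp and Cnp in females, and 3 against 3 cannot give less than 0.1. Under the filter of at least 1 count in any library, 3 of the 9 passed in females, with 4.19% of all genes.

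In males alone no gene of the 9 passed either threshold in edgeR, where 0% of all genes passed the adjusted one (0 genes in limma voom, 3 in DESeq2) and 4.51% had an unadjusted p under 0.05. Mag was at -0.93 (SE 0.51), Mbp at -0.49 (SE 0.36), Cnp at -0.29 (SE 0.19) and Enpp6 at -0.31 (SE 0.28). Over the other tools, filters and covariates, the fit without RIN among them, Mag ran from -0.94 to -0.64 and Mbp from -0.49 to -0.30. Cnp ran from -0.29 to -0.12 and Enpp6 from -0.31 to -0.08. The plain male means of log2 CPM, taken on the log scale and with no model, differed by -0.21, -0.12, -0.08 and 0.00 for these 4 genes, with an exact permutation p of 1 for each. What sets these values apart from the fitted ones was not tested. Without V24 all 4 fitted differences turned, to 0.40 for Mag, 0.38 for Mbp, 0.10 for Cnp and 0.25 for Enpp6. Under the filter of at least 1 count in any library, 2 of the 9 passed in males (Mag and Mbp), with 0.507% of all genes.

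The exposure-by-sex term (model 2), the male minus the female difference, was the test of whether the sexes differed. No gene of the 9 passed either threshold in edgeR, limma voom or DESeq2. Of all genes, 0% passed the adjusted threshold in edgeR (39 genes in DESeq2) and 9.68% had an unadjusted p under 0.05. The term was 0.08 for Mag with a 95% interval of -1.46 to 1.62, 0.06 for Mbp (-0.94 to 1.07) and 0.08 for Cnp (-0.48 to 0.64), and 0.04 for Pdgfra (-0.15 to 0.23). Sox10 had -0.15 and the smallest p (0.471, edgeR adjusted p = 0.859). Without V24 the term came to 1.34 for Mag, 0.83 for Mbp and 0.43 for Cnp, with edgeR adjusted p of 0.423, 0.410 and 0.465. These 3 of the 9 then had an unadjusted p under 0.05, as 9.36% of all genes did.

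For males against females (model 1), no gene of the 9 passed either threshold in edgeR, where 0.0336% of all genes passed the adjusted one and 6.09% had an unadjusted p under 0.05. The adjusted threshold was passed by 0 of the 9 in limma voom and DESeq2 too. Olig1 came closest, at -0.10 in males (SE 0.05, 95% interval -0.21 to 0.00, unadjusted p = 0.0526 and edgeR adjusted p = 0.797). The other differences ran from -0.29 for Mag (interval -1.13 to 0.56) to 0.03 for Pdgfra. Without V24, 2 of the 9 had an unadjusted p under 0.05, as 6.37% of all genes did. They were Mag at -0.74 (edgeR adjusted p = 0.759) and Olig1 at -0.12 (adjusted p = 0.758). Without RIN in the fit Olig1 was at -0.04 (edgeR adjusted p = 0.909) and Mag at 0.00 (adjusted p = 0.999).

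The 4 genes of maturing cells varied together over the 12 libraries. Pearson's r of log2 CPM was 0.97 between Mag and Mbp (Spearman's rho 0.98), 0.96 between Mag and Cnp (0.97), 0.94 between Mag and Enpp6 (0.94), 0.98 between Mbp and Cnp (0.99), 0.96 between Mbp and Enpp6 (0.97) and 0.96 between Cnp and Enpp6 (0.97). Over the 36 pairs of the 9 genes these were the 6 with a Benjamini-Hochberg adjusted permutation p under 0.05 for r. The smallest permutation p possible was 1e-05, and the 6 adjusted p-values of r were 0.00012 to 0.00018. With the 2 libraries farthest from the median left out, r within the 4 genes was 0.88 to 0.95. Between Mag and Mbp it was 0.97 in controls and 0.97 after nPM (6 libraries each) and 0.95 in the 8 libraries of lane 2, and lane 3 held 4 libraries, fewer than the 6 taken as the least for a correlation.

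The precursor genes and Olig2 did not follow Mag over the 12 libraries. It had r = -0.44 with Pdgfra (permutation p = 0.15, Spearman's rho -0.55 with p = 0.0704), 0.00 with Cspg4 (p = 0.993, rho -0.01 with p = 0.974) and -0.03 with Olig2 (p = 0.923, rho -0.10 with p = 0.747). In controls and after nPM, r with Mag was -0.20 and -0.80 for Pdgfra, -0.02 and -0.14 for Cspg4, and 0.54 and -0.35 for Olig2. Pdgfra had rho of -0.58 with Mbp, -0.57 with Cnp and -0.52 with Enpp6 (adjusted permutation p of 0.145, 0.152 and 0.17). With Olig1, over the 12 libraries, Mag had 0.65 (permutation p = 0.0205, adjusted 0.0959, rho 0.67 with p = 0.0202), and 0.55 without the 2 farthest libraries. Olig1 stood closer to the maturing genes by rank, with rho of 0.73 to Mbp, 0.71 to Cnp and 0.71 to Enpp6 (adjusted permutation p = 0.0436 for each), while r was 0.63, 0.63 and 0.61 (adjusted p of 0.0959, 0.0959 and 0.098) and 0.85, 0.55 and 0.52 without the 2 farthest libraries. Sox10, the factor bound at many myelin genes, had r = 0.52 with Mag (permutation p = 0.0828, rho 0.48 with p = 0.116), 0.63 with Mbp (p = 0.0264, rho 0.52 with p = 0.0848), 0.61 with Cnp (p = 0.032, rho 0.54 with p = 0.0764) and 0.66 with Enpp6 (p = 0.0222, rho 0.61 with p = 0.0408). None of these 4 passed after adjustment (smallest adjusted p 0.0959 for r and 0.122 for rho). Without the 2 farthest libraries r was 0.14, 0.47, 0.28 and 0.63, and within each exposure group it was 0.77 to 0.89. Between Olig1 and Pdgfra rho was -0.78 (permutation p = 0.00399, adjusted 0.0205) while r was -0.48 (p = 0.117), -0.37 without the 2 farthest libraries.

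**Figure D4:**
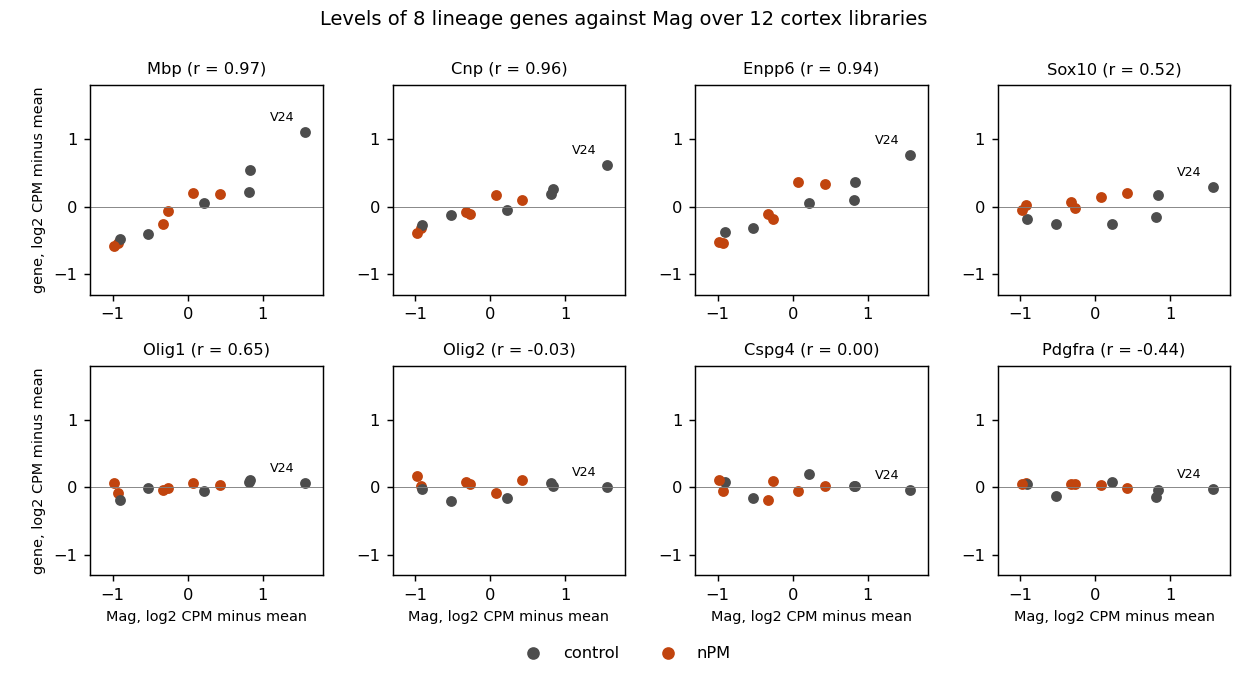
Levels of 8 lineage genes against Mag. Both axes are log2 CPM minus the mean of the 12 libraries, on the same scale in each panel, and points are libraries (grey control, orange nPM). Mbp, Cnp and Enpp6 climb with Mag (r of 0.94 to 0.97), while Pdgfra, Cspg4 and Olig2 stay within a narrow band.

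Among 16651 other genes with at least 10 counts in every cortex library, the gene most like Mag over the 12 libraries was Mobp, a myelin protein gene (r = 0.98), and the gene most like Enpp6 was Bcas1, a marker of newly formed oligodendrocytes (r = 0.98). For Mbp 50 genes had r above 0.9, for Cnp 61, for Enpp6 39 and for Mag 23. Pdgfra, Cspg4, Olig1 and Olig2 had 2 or 3 such genes and Sox10 had 5. The most alike were Ddias for Pdgfra (r = 0.92), Eif4g1 for Cspg4 (0.92), Pla2g6 for Olig1 (0.91), Rec8 for Olig2 (0.98) and Sparc for Sox10 (0.93). These values were picked as the highest of many and are given as a description.

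Further genes of the lineage were taken from lists, read against a median log2 difference of 0.00 over all genes. Genes whose differences are given from a list were chosen by their p and not by size, apart from Mog and Thra. Of 20 myelin and mature oligodendrocyte genes, which exclude the 9, 18 were tested and 14 were lower and 4 higher after nPM, with a median of -0.30. At an unadjusted p under 0.05, 5 were lower and 0 higher, where 2.94% of all genes were lower and 2.73% higher, and none passed the adjusted threshold (smallest edgeR adjusted p 0.635). Without V24 the median was -0.13 and 1 was lower at that p, where 8.88% of all genes had such a p in either direction. Ermn, which encodes the myelin cytoskeletal protein ermin, was at 1.12 ± 0.181 CPM after nPM and 1.77 ± 0.459 in controls (SD, n = 6 each). Its log2 difference was -0.69 (SE 0.18, unadjusted p = 0.00186, edgeR adjusted p = 0.635), and -0.58 without V24. The exact permutation test gave p = 0.00866 for Ermn. Mog, a protein of the outer myelin surface, had -0.89 (SE 0.41, edgeR adjusted p = 0.862), and was nearer 0 without V24, at -0.37.

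Of 12 precursor markers, 7 were higher and 5 lower with a median of 0.03, and 1 gene in each direction had an unadjusted p under 0.05 (2.73% of all genes higher and 2.94% lower). Lhfpl3 was at 54.1 ± 2.68 CPM after nPM and 48.1 ± 3.36 in controls (SD, n = 6 each), with a log2 difference of 0.16 (SE 0.05, edgeR adjusted p = 0.807) that was 0.18 without V24. Of 8 committed precursor markers 6 were lower and 2 higher (median -0.08), with Itpr2 at -0.16 (SE 0.09, adjusted p = 0.872). None of either list passed the adjusted threshold.

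The genes that steer the lineage were near the median of all genes. Of 11 transcription regulators that promote it, 6 were higher and 5 lower (median 0.01), and Myrf, the activator of myelin genes, had -0.33 (SE 0.20, edgeR adjusted p = 0.884) and -0.15 without V24. Of 9 inhibitors of oligodendrocyte differentiation 5 were higher and 4 lower (median 0.01), with Sox5 at -0.13 (SE 0.06, adjusted p = 0.862). Of 10 ligands 5 were higher and 5 lower (median 0.00), with Nrg1, which encodes neuregulin, at -0.10 (SE 0.07, adjusted p = 0.884). Of 13 receptors 9 were higher and 4 lower (median 0.02), and Thrb, a receptor of the thyroid hormone that drives maturation, was at 47.4 ± 4.76 CPM after nPM and 55.2 ± 3.14 in controls (SD, n = 6 each). Its log2 difference was -0.22 (SE 0.06, unadjusted p = 0.00132, edgeR adjusted p = 0.588), and -0.20 without V24. Thra, the other receptor of that hormone in the list, was at 807 ± 19.8 CPM after nPM and 796 ± 29.3 in controls. Its log2 difference was 0.02 (SE 0.04, edgeR adjusted p = 0.956). Of 22 genes of cholesterol synthesis, the lipid myelin is rich in, 14 were higher and 8 lower (median 0.02), with Idi1 at 0.21 (SE 0.08, adjusted p = 0.853). No gene of these 5 lists passed the adjusted threshold in edgeR. At an unadjusted p under 0.05 the receptors had 2 genes higher and 1 lower, the cholesterol synthesis genes 1 in each direction, the inhibitors 1 lower, and the regulators and ligands 0, where 2.73% of all genes were higher and 2.94% lower.

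**Figure D5:**
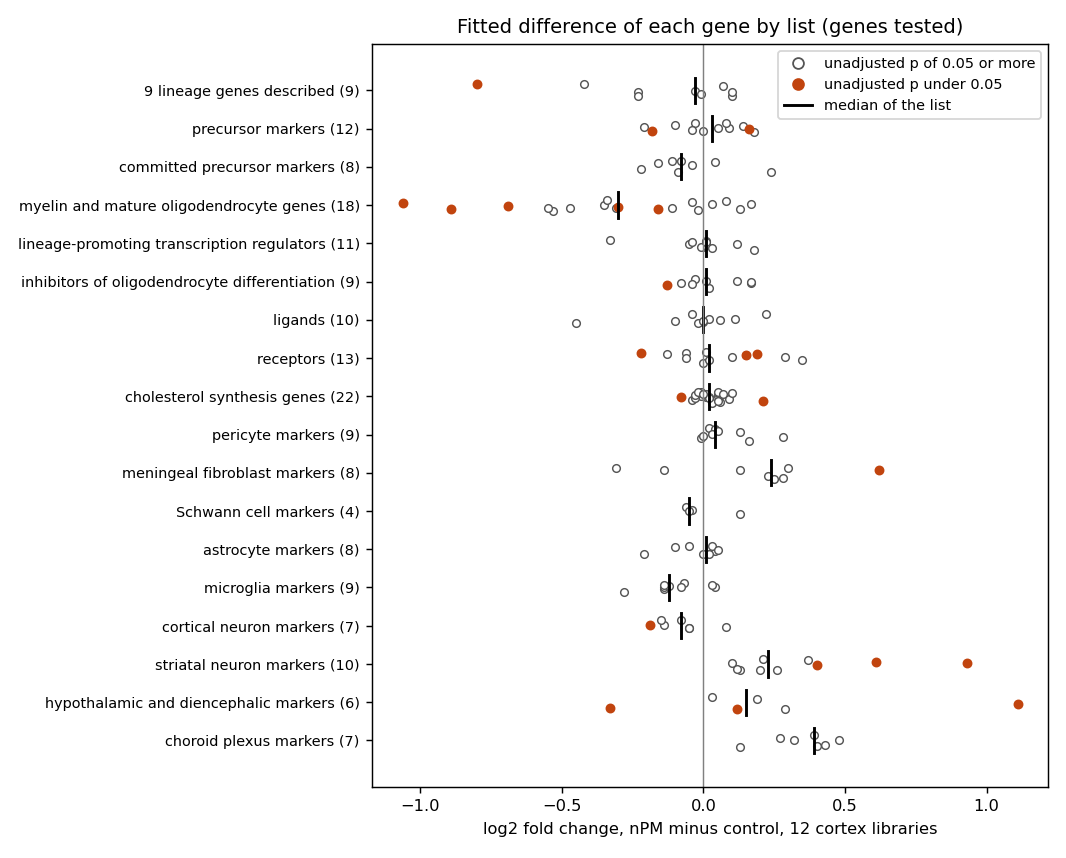
Fitted log2 difference (nPM minus control, 12 cortex libraries) of each tested gene by list. Points are genes (filled at an unadjusted p under 0.05), black bars list medians, and the number of genes tested is in brackets. The myelin list extends furthest to the left, with a median of -0.30, and precursor, regulator, ligand and receptor lists centre near 0.

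Some of the 9 genes are also made by other cells, whose markers were summed as CPM. Pericytes share Cspg4, meningeal fibroblasts Pdgfra, and Schwann cells Sox10, Mag, Mbp and Cnp. Schwann cell markers were close to absent in their defining genes, with at most 3 counts of Pmp2 and 3 of Foxd3 in any cortex library, and the list's sum (73.6 to 83.8 CPM after nPM, 77.8 to 87.7 in controls) was mostly Drp2. Of its 4 tested genes 3 were lower and 1 higher, and Drp2 had -0.04 (edgeR adjusted p = 0.909). Pericyte markers summed to 272 to 296 CPM after nPM and 211 to 295 in controls, with 7 of 9 higher (median 0.04) and Anpep at 0.28 (adjusted p = 0.884). Meningeal fibroblast markers summed to 160 to 230 CPM after nPM and 129 to 331 in controls, with 6 of 8 higher (median 0.24). Among them Dcn, a collagen-binding proteoglycan, was at 30.0 ± 2.32 CPM after nPM and 19.6 ± 5.43 in controls (SD, n = 6 each), a log2 difference of 0.62 (SE 0.14, unadjusted p = 0.000376, edgeR adjusted p = 0.493).

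Summed markers of other cells varied with Mag over the libraries. Mag had r = 0.87 with the summed astrocyte markers (rho 0.87, permutation p = 0.00031 and 0.00055), 0.84 with those of microglia (rho 0.78, p = 0.00051 and 0.00353), 0.77 with those of cortical neurons (rho 0.77, p = 0.00282 and 0.00521) and -0.78 with the cholesterol synthesis genes (rho -0.73, p = 0.00306 and 0.0089). The Benjamini-Hochberg adjusted p of r over the 17 lists was 0.00176, 0.00217, 0.00867 and 0.00867, and without V10 and V24 r was 0.75, 0.64, 0.50 and -0.59. Mag also had 0.96 with the myelin list (rho 0.95, permutation p = 1e-05 for each) and 0.87 with the committed precursor list (rho 0.90, p = 0.0003 and 0.00027). With the precursor markers it had -0.26 (permutation p = 0.418, rho -0.17 with p = 0.588). For the regulators, inhibitors, ligands, receptors, pericytes, fibroblasts and Schwann cells r was -0.14 to 0.52, with the smallest adjusted permutation p of 0.183 for the ligands (rho 0.69, adjusted p = 0.0359). Without V10 and V24 r was 0.76 for the Schwann cell list, 0.55 for the ligands and -0.26 to 0.20 for the rest of these lists. In lane 2, r was 0.77 for astrocytes, 0.68 for microglia and 0.54 for cortical neurons. There the Schwann cell list had 0.89, the ligands 0.66, the regulators 0.62 and the rest -0.01 to 0.45. V24 had the highest sum of astrocyte, microglia and cortical neuron markers as well. The sums were 2159 to 2670 CPM after nPM and 2058 to 3015 in controls for 8 astrocyte markers, 218 to 292 and 211 to 341 for 9 microglia markers, and 816 to 902 and 885 to 1011 for 7 cortical neuron markers. The fitted list medians were 0.01, -0.12 and -0.08, and the first 2 lists had Slc1a2 at -0.21 (edgeR adjusted p = 0.88) and Tmem119 at -0.28 (adjusted p = 0.88). Slc1a2 was the largest part of the astrocyte sum, at a mean of 1183 CPM, and Slc17a7 of the neuron sum, at 403. In controls Slc1a2 ran from 904 to 1648 CPM, where Slc1a3 ran from 417 to 505. Slc17a7 ran from 322 to 585 there, where Neurod6 ran from 151 to 197. The r of Mag with single markers of these cells is not given here. The part of these cells in the spread of Mag was not tested.

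Markers of tissue next to the cortex were counted at unequal levels. Striatal neuron markers summed to 266 to 324 CPM after nPM and 108 to 420 in controls, and all 10 were higher after nPM (median 0.23), 3 of them at an unadjusted p under 0.05 (2.73% of all genes), with Isl1 at 0.93 (SE 0.35, edgeR adjusted p = 0.844). Choroid plexus markers summed to 239 to 516 CPM after nPM and 32.1 to 400 in controls, and all 7 were higher (median 0.39), with Aqp1 at 0.40 (SE 0.20, adjusted p = 0.862). The lowest control sums of both lists, 108 and 32.1 CPM, were those of 1 control male, V14. The other controls had at least 179 and 312 CPM. Of 15 hypothalamic and diencephalic markers 6 were tested and 5 were higher, with Irs4 at 1.11 (SE 0.30, adjusted p = 0.635) and Trh at -0.33 (SE 0.10, adjusted p = 0.779), while Nkx2-4 and Hmx2 were at 0 in every cortex library. Mag had r = 0.24 with the striatal markers, 0.08 with those of choroid plexus and -0.56 with the hypothalamic list (permutation p of 0.464, 0.827 and 0.0589, rho 0.15, -0.46 and -0.60 with p of 0.637, 0.134 and 0.0439). The part of these tissues in the differences of the 9 genes was not tested.

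In blood the lineage genes were mostly at background. Of the 12 blood libraries, V2 (a control female) and V5 (an nPM male) stood apart. In the other 10, Olig2 had 0 counts in each, and the highest count was 9 for Pdgfra, 6 for Mag, 5 for Olig1 and Enpp6, 4 for Cspg4 and 2 for Sox10. Cnp and Mbp were counted in all of them, at 85 to 203 and 92 to 273 counts. Mean cortex CPM was 13.2-fold above the mean of these 10 for Cnp and 16.8-fold for Mbp. V2 held 893 counts of Pdgfra, 788 of Cspg4, 46 of Sox10 and 13 of Mag, with 8 of Olig1 and 0 of Olig2. Its fibroblast markers summed to 4429 CPM where the other 10 had 11.5 to 39.6. Its pericyte markers summed to 118 CPM where the other 10 had 0.148 to 1.19. V5 held 34 counts of Mag, 468 of Mbp and 36 of Pdgfra.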

How the data were processed

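Cerebral cortex and whole blood of neonates were profiled by RNA-seq after depletion of ribosomal RNA (RiboZero Gold). Reads were trimmed (Trimmomatic), checked (FastQC), mapped to mm10 (HISAT2) and assigned to genes of Gencode M11 (featureCounts 1.5.0-p3) by the authors, and the deposited values are counts without normalization. The RPKM values in the gene table are a mean per gene that the authors made from the counts and gene lengths, and they were not used. CPM were computed here with TMM factors, and levels between genes were divided by the deposited gene length. The main test was edgeR's F test under quasi-likelihood (two-sided, genes counted at least once in each fitted library, prior count 0.5, Benjamini-Hochberg adjustment, threshold 0.05), with RIN as covariate. Model 1 had exposure and sex, model 2 their interaction, and fits of 1 sex exposure alone. The study used limma voom, which was an alternative here because the files hold counts. Other alternatives were DESeq2, RLE normalization, 3 filters, no RIN, a lane covariate, for the fits of 1 sex a contrast from both sexes, and each library left out. Gene lists without V24 and fits of each lane alone, which had exposure and sex but no RIN, were added after seeing the data. Correlations used 100000 permutations (seed 4107). Replicates were separate pups, numbered in accession order. No 2 cortex libraries were copies (smallest chi-square per gene 7.232).

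The 9 genes and the 17 lists were chosen with earlier results of these data known. Named genes were the 9 and Mog, in each list the genes with an unadjusted p under 0.005 or else the gene with the smallest p, and the gene most correlated with each of the 9. Thra was added after its values were seen. A few results that this rule names are not reported here. Genes named for their counts or levels alone in the checks of other cells and tissues were chosen after their values were seen. On simulated counts with 2-fold changes, edgeR called 161 of 191 changed genes in model 1 (20386 genes tested), 142 of 193 in females, 99 of 187 in males and 119 of 196 for the interaction. The changed genes were drawn at random from all genes. Mag, Mbp, Cnp and Enpp6 had a higher dispersion than 98.0 to 99.8% of genes of like abundance, so these rates cannot be read as theirs. Software was edgeR 4.0.16, limma 3.58.1 and DESeq2 1.42.0 in R 4.3.3, and scipy 1.17.1 in Python 3.11.15.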

Additional observations from a re-analysis of the deposited data

Results flagged for a closer look

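In the nPM cortex group the lowest Pdgfra level, 160 CPM in V09, lay apart from the other 5 libraries, at 0.69 of the group's range from the nearest of them. This was 1 of 18 groups of 6 looked at, and chance alone sets apart about 1 in 20. The whole range of the group was 160 to 169 CPM, narrower than that of the controls.

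Blood was not compared between nPM and control above, and some nPM blood libraries exceeded every control blood library. V5, an nPM male, had 25.4 CPM of Mbp where the highest control had 12.5, 1.84 CPM of Mag against 0.614, 0.488 CPM of Olig1 against 0.378 and 0.379 CPM of Enpp6 against 0.189. Enpp6 was also above the highest control in V1 (0.206 CPM) and V3 (0.246 CPM), by counts of 5 or fewer. The cause was not tested.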

How the results depend on the processing

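No paired analysis was possible because the labels give no replicate numbers that pair the groups. With genes of at least 1 count in any library, the genes of the 9 past the adjusted threshold went from 0 to 3 over both sexes, 3 in females and 2 in males. Those among all genes over both sexes went from 3 to 185. The total degrees of freedom rose under this filter through the part borrowed from all genes. All genes past it over both sexes numbered 22 in DESeq2, 1 without RIN, 1 with lane, and 0 to 6 with a library left out. In females a left-out library gave 0 to 4 of the 9, the 4 without V09.

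Without RIN the sex difference turned to 0.02 for Sox10, 0.08 for Enpp6, 0.09 for Cnp and 0.11 for Mbp, and the male nPM difference to 0.00 for Cspg4 and 0.05 for Olig1, which was 0.00 in the fit of both sexes. Sox10 in males was 0.00, with a changed sign, in DESeq2 and with RLE. Leaving out each library in turn changed signs as follows. For nPM over both sexes the log2 difference ran from -0.06 to 0.02 for Cspg4 and -0.03 to 0.01 for Olig1. In females it ran from 0.00 to 0.14 for Pdgfra, -0.13 to 0.05 for Cspg4 and -0.05 to 0.01 for Olig1. In males it ran from -0.12 to 0.05 for Olig1, -0.18 to 0.25 for Sox10, -0.62 to 0.25 for Enpp6, -0.52 to 0.10 for Cnp, -1.87 to 0.40 for Mag and -1.07 to 0.38 for Mbp, turned by V24 in the last 4. For sex it ran from -0.13 to 0.03 for Sox10, -0.28 to 0.07 for Enpp6, -0.15 to 0.11 for Cnp, -0.74 to 0.08 for Mag and -0.34 to 0.15 for Mbp. For the interaction it ran from -0.04 to 0.11 for Pdgfra, 0.00 to 0.21 for Cspg4, -0.02 to 0.07 for Olig1, -0.15 to 0.02 for Olig2, -0.36 to 0.06 for Sox10, -0.30 to 0.61 for Enpp6, -0.20 to 0.43 for Cnp, -0.50 to 1.34 for Mag and -0.34 to 0.83 for Mbp. The cause of these changes was not tested.

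For Mag, Mbp, Cnp and Enpp6 over both sexes, no left-out library, tool, filter or covariate changed the sign, but Enpp6 was at 0.10 in lane 2 alone. With 3 libraries per sex and exposure the intervals of Mag and Mbp stay wide, and the lane 3 values rest on 1 library of each group.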
